A study of Homo sapiens with 4 samples.

Results

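The aryl hydrocarbon receptor genes described here are 8 of 39306 gene names measured by RNA sequencing in the human liver cancer line MHCC97H, an established line derived from hepatocellular carcinoma. They are the receptor AHR, its partner ARNT, its repressor AHRR and the target genes CYP1A1, CYP1B1, TIPARP, NQO1 and ALDH3A1, each taken by an exact match of its gene name. The control group held 2 libraries of wild-type MHCC97H cells (genotype HNRNPM-wild type), and the knockdown group held 2 libraries of sh-HNRNPM MHCC97H cells, in which a short hairpin RNA lowers HNRNPM, a splicing regulator. No treatment with a receptor ligand is given for either group, the controls carry no named control hairpin, and the labels do not say whether replicates were separate cultures or carried the same hairpin. The p-values therefore rest on library-to-library spread alone, part or all of which may be technical, and effects of hairpin delivery cannot be told apart from loss of HNRNPM. The 8 genes were selected on RPKM of these same 4 libraries, with earlier results of the knockdown comparison in view. Their differences are given with standard errors and 95% intervals as a description, with no p-value for any of them, and counts of members past a threshold stand only beside the share of all genes past it.

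The aryl hydrocarbon receptor is a transcription factor of the basic helix-loop-helix and PAS domain family. Without a ligand it rests in the cytosol with the chaperone HSP90 and its cochaperone p23 (gene PTGES3). Aromatic hydrocarbons, dioxins and some tryptophan products bind it, after which it enters the nucleus, pairs with ARNT and binds the xenobiotic response element, whose core letters are GCGTG. In liver cells the pair is best known for switching on CYP1A1, and the feedback genes AHRR and TIPARP are switched on with it and restrain it. NQO1 and ALDH3A1 are classical members of the same gene battery, and NQO1 is also a main target of the oxidative stress factor NRF2.

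The region just upstream of a start site is shown for the 3 target and feedback genes whose RefSeq promoter windows (build GRCh38.p14) hold the core motif upstream of the start, as the place where the receptor's recognition letters can be seen in sequence. Of the 8 genes, 6 had windows in the RefSeq table, 9 windows in all, each from 250 bases before to 50 bases after a start site. The windows below hold the 250 upstream bases only, read 5′ to 3′ in the sense of the gene, and capitals mark GCGTG or its reverse complement CACGC. The CYP1A1 window is chr15:74725529-74725778 on the minus strand, the TIPARP window chr3:156674340-156674589 on the plus strand and the AHRR window chr5:321464-321713 on the plus strand, the latter pair being the first of 3 and of 2 windows of their gene.
CYP1A1: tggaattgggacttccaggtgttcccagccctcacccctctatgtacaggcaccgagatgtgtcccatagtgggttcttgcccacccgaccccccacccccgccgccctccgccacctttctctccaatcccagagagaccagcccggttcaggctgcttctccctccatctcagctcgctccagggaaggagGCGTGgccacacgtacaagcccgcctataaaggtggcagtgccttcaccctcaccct
TIPARP: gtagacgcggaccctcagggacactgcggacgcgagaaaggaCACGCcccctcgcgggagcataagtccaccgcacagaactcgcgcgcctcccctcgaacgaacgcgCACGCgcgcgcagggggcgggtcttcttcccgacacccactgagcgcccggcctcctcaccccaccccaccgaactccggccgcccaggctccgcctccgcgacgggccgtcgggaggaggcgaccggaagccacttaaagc
AHRR: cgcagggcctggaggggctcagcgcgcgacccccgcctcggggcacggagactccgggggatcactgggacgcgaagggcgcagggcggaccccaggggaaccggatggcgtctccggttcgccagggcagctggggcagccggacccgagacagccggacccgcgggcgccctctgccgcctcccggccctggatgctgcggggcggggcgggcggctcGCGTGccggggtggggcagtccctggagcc
CYP1A1 held 1 match, on the sense strand and starting 57 bases upstream of the start site. TIPARP held 2 matches in the window shown, both on the opposite strand, at 208 and 142 bases upstream, and its other windows held none. AHRR held 1 match at 30 bases upstream in the window shown, where the letters extend to the longer form TNGCGTG, and its other window held 2 matches at 247 and 42 bases upstream. AHR and NQO1 held a match only downstream of the start, at bases 38 to 42 and 2 to 6. The motif was present in 6 of the 9 windows, against 36.5% of all 35116 windows in the table. The longer form TNGCGTG, which contains the core, was present in 2 of the 9 windows against 5.51% of all windows. The antioxidant response element core TGACNNNGC was present in 1 of the 9 windows (ARNT; 13.3% of all windows) and the AP-1 motif TGANTCA in 0 of 9 (7.71% of all windows). All searches covered both strands. The windows shown are rich in G and C (62.4% in CYP1A1, 71.6% in TIPARP and 79.2% in AHRR). A match describes letters only, and receptor binding was not measured in these libraries.

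Values are RPKM, which scale the reads of a gene to its exon length and to the total of reads assigned to genes, and those totals came to 18317579 and 19659106 in the controls and 12708165 and 11498663 after knockdown, so depth moved with the group. HNRNPM itself stood at 51.3 and 51.6 RPKM in the wild-type pair and, after knockdown, 21.8 and 20.4 RPKM. As a check of the cell label, 6 of the 10 hepatocellular markers were above 1 RPKM in all libraries. The epithelial keratins KRT8 and KRT18 of the hepatocellular marker list were abundant (278 to 672 RPKM), while 4 of its 10 markers were below 1 RPKM in at least 1 library, among them AFP at 0.267 to 0.436 RPKM and TTR at 0.160 to 0.445 RPKM. ALB fell from 5.35 and 6.28 RPKM to 1.75 and 1.78 RPKM and APOB fell by 0.93 on the log2 scale, while KRT18 rose by 0.47 (limma adjusted p = 0.00366, 0.0206 and 0.0382). The 6 fibroblast markers summed to 1.27 and 1.47 RPKM in wild-type cells against 3.72 and 3.58 RPKM after knockdown. All 6 were higher in both knockdown libraries than in both controls, as were 31.0% of all tested genes after scaling with TMM factors. All but LUM were at most 0.253 RPKM in every library. LUM made up most of the sum and rose (limma adjusted p = 0.00638). COL1A1 stood at 0.0278 and 0.0259 RPKM in wild-type cells against 0.128 and 0.133 RPKM after knockdown. COL1A1 and PDGFRB had only 5 and 6 reads in each control library, and COL1A2 had 1 and 6 reads in the controls. COL1A1, COL1A2 and PDGFRB passed the filter on low values through their knockdown libraries alone, so no p-value is given for them. Their direction was thus partly set by the filter, and nothing is read from all 6 being higher. Of the 3 endothelial markers PECAM1 made up most of the sum, at 8.55 and 9.01 RPKM in the wild-type pair and, after knockdown, 5.83 and 5.97 RPKM. PECAM1 and CDH5 fell by 0.63 and 0.82 on the log2 scale (limma adjusted p = 0.00842 and 0.0330), and VWF was not tested. Of the 4 leukocyte markers PTPRC had 0 reads in 3 libraries and 4 reads in knockdown replicate 1, while CD68 stood at 46.4 to 61.6 RPKM. The part of other cell types in the results below was not tested. In bulk RNA, fewer cells expressing a gene and less RNA per cell cannot be told apart.

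CYP1A1 was the member with the largest difference, about 22.3 times higher in mean RPKM in the knockdown cells, and TIPARP, CYP1B1 and ARNT were higher by smaller amounts. AHR itself and the abundant target NQO1 lay slightly lower, and the other abundant target, ALDH3A1, differed little. The libraries of ALDH3A1 overlapped after scaling, and its sign turned when knockdown replicate 2 was left out. All 8 genes passed the filter on low values. In the limma fit over all 20221 tested genes, the adjusted p was under 0.05 for 4 of the 8, all higher, against 11.1% of all tested genes called higher and 13.8% called lower (24.9% in either direction). No member was called lower by limma on all libraries, and 1, NQO1, was called lower by limma-voom. Over all 20221 tested genes limma-voom called 3954 lower. Without control replicate 2 the log2 fold change of NQO1 was -0.34. Without a filter on low values 2 of 8 were called higher, against 693 of 39306 genes. Fewer members, and fewer of all genes, were called higher without control replicate 1 or without either knockdown replicate. After scaling with TMM factors, 7 of the 8 had no overlap between control and knockdown libraries, 5 of them higher and 2 lower, against 67.6% of all tested genes. The median log2 fold change of the 8 was 0.30, and that of all tested genes was -0.03. Because this comparison chose the members, nothing is read from these counts.

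**Figure D1:**
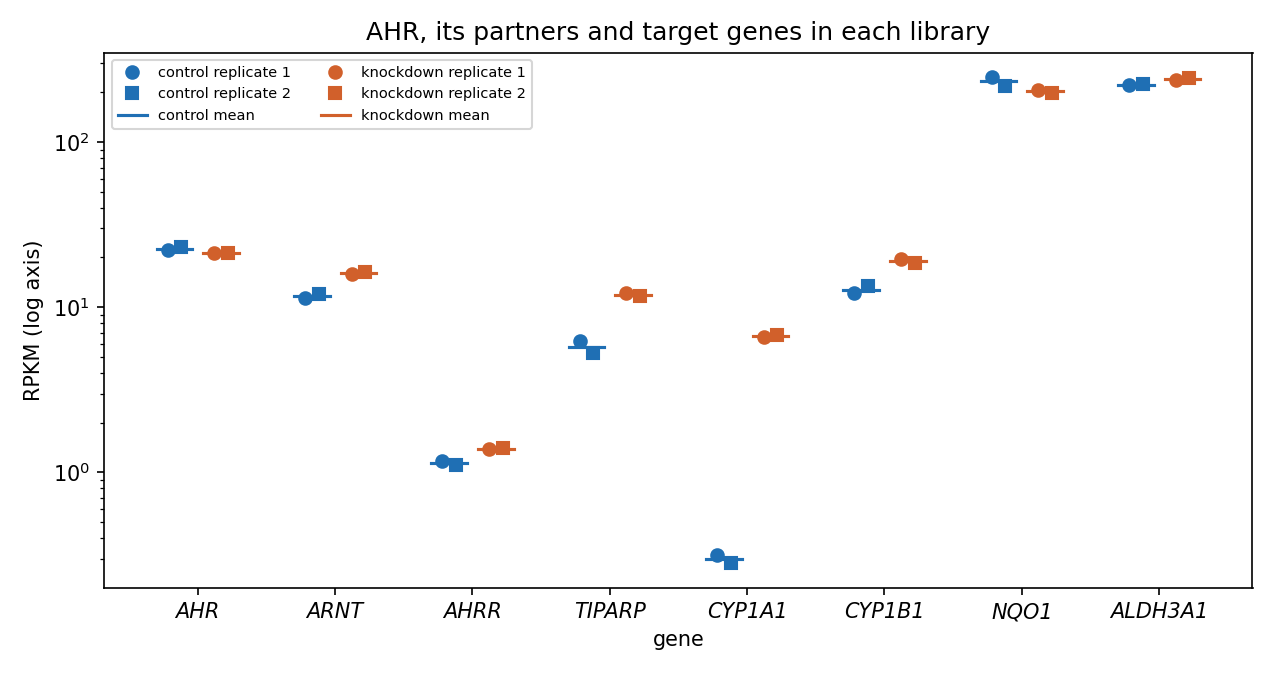
RPKM (log axis) of the 8 genes in each of the 4 libraries, with circles for replicate 1, squares for replicate 2 and a line at the mean of each group. CYP1A1 lies at 0.281 to 0.318 RPKM in the controls and 6.57 to 6.79 RPKM in the knockdown libraries, while AHR, NQO1 and ALDH3A1 stay at nearly the same height in all 4.

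The receptor was among the more abundant transcripts of the line. AHR (chromosome 7, 17298622 to 17346152, plus strand, GRCh38) was measured at 22.2 and 23.1 RPKM in wild-type cells against 21.3 and 21.3 RPKM after knockdown. The knockdown libraries thus lay just below the controls without overlap, and AHR sat at the 90.1 percentile of tested genes in control cells. Its log2 fold change was -0.15 ± 0.07 (SE), with a 95% interval of the fold from 0.799 to 1.01. Without TMM factors the log2 fold change of AHR was -0.09. The exons of AHR share 2373 bp, or 35.6% of their length, with RP11-507K12.1 on the same strand, which was measured at 26.9 and 28.1 RPKM in the wild-type pair and, after knockdown, 26.8 and 25.3 RPKM. AC003075.4, on the opposite strand, shares 270 bp or 4.05% of the AHR exons and stood at 8.70 to 10.2 RPKM in the 4 libraries. No source used here says how the counting divided reads between the pair, so the AHR level is uncertain.

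ARNT, the nuclear partner with which the receptor binds DNA, was higher in the knockdown libraries. ARNT (chromosome 1, 150809705 to 150876768, minus strand) was measured at 11.4 and 11.95 RPKM in wild-type cells against 15.8 and 16.2 RPKM after knockdown. The groups were separated by more than the distance between their replicates, and the log2 fold change was 0.39 ± 0.08 (SE), a fold of 1.31 with a 95% interval from 1.15 to 1.50. The ratio of ARNT to AHR within a library, which needs no scaling between libraries, was 0.512 and 0.517 in the wild-type pair and, after knockdown, 0.743 and 0.763. ARNT exons overlap no exon of another gene in the tables.

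The feedback repressors differed in size. AHRR, which competes with the receptor for ARNT, was a low transcript at 1.17 and 1.11 RPKM in wild-type cells against 1.38 and 1.40 RPKM after knockdown, from 124 to 168 reads per library. The groups did not overlap, but the log2 fold change of 0.21 ± 0.14 (SE) had a 95% interval of the fold from 0.901 to 1.49, which includes no difference. AHRR (chromosome 5, 304176 to 438291, plus strand) shares 244 bp of exon, 3.18% of its length, with PDCD6. TIPARP, an enzyme that adds ADP-ribose to the receptor and limits its action, was measured at 6.25 and 5.30 RPKM in the wild-type pair and, after knockdown, 12.2 and 11.6 RPKM. The lower knockdown library was well above the higher control, and the log2 fold change was 0.97 ± 0.10 (SE), a fold of 1.96 with a 95% interval from 1.65 to 2.34. Only 5.17% of tested genes had a larger absolute log2 fold change than TIPARP. TIPARP (chromosome 3, 156673235 to 156706770, plus strand) shares 37 bp of exon with TIPARP-AS1 on the opposite strand, which had 3 to 7 reads per library.

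The cytochrome P450 genes of family 1 encode enzymes that oxidise aromatic hydrocarbons and estrogens. CYP1A1 (chromosome 15, 74719542 to 74725610, minus strand) was near the bottom of the tested range in control cells, at 0.318 and 0.281 RPKM from 20 and 19 reads. In the knockdown libraries it stood at 6.57 and 6.79 RPKM from 287 and 268 reads, although those libraries were shallower. The exact Poisson 95% intervals, which cover counting error only, had upper ends of 0.491 and 0.439 RPKM in wild-type cells and lower ends of 5.84 and 5.997 RPKM after knockdown. CYP1A1 moved from the 6.0 percentile of tested genes to the 67.2 percentile. Its log2 fold change on the log2(RPKM + 0.1) scale was 4.03 ± 0.14 (SE), a fold of 16.3 with a 95% interval from 12.8 to 20.9, and was the second highest of all 20221 tested genes after FOSB. The pseudocount of 0.1 lowers this value, and the log2 fold change was 4.37 with a pseudocount of 0.01, 2.53 with a pseudocount of 1 and 4.38 by limma-voom on the recovered reads. CYP1A1 exons overlap no exon of another gene in the tables.

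The neighbouring gene CYP1A2, a liver enzyme whose start faces that of CYP1A1 across 23233 bp, had at most 3 reads in a library. CYP1A2 had 0 and 3 reads in the wild-type pair and, after knockdown, 1 and 1 reads and was not tested. CYP1B1 (chromosome 2, 38066973 to 38109902, minus strand), the family member best known outside the liver, was already well expressed in control cells at 12.2 and 13.4 RPKM. It was measured at 19.5 and 18.6 RPKM in the knockdown libraries, above both controls, with a log2 fold change of 0.51 ± 0.08 (SE) and a fold of 1.42 (95% interval 1.23 to 1.64). The ratio of CYP1A1 to CYP1B1 within a library was 0.0262 and 0.0209 in wild-type cells against 0.338 and 0.365 after knockdown. CYP1B1-AS1 on the opposite strand shares 678 bp, or 11.3%, of the CYP1B1 exons and stood at 2.50 and 2.43 RPKM in the wild-type pair and, after knockdown, 3.71 and 3.42 RPKM. RMDN2 and RMDN2-AS1 share a further 96 bp and 69 bp and were below 1 RPKM in every library. CYP1B1 and CYP1B1-AS1 both lay higher in the knockdown cells, and no source used here gives the strand setting of the counting, which decides whether they share reads.

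The 2 detoxifying dehydrogenase and reductase genes were the most abundant members by far. NQO1, a quinone reductase (chromosome 16, 69706996 to 69726951, minus strand), was measured at 247 and 219.5 RPKM in wild-type cells against 206 and 199.6 RPKM after knockdown. The knockdown libraries were below both controls, and the log2 fold change was -0.26 ± 0.08 (SE), a fold of 0.834 (95% interval 0.721 to 0.964). ALDH3A1, an aldehyde dehydrogenase (chromosome 17, 19737984 to 19748943, minus strand), was measured at 221 and 225 RPKM in the wild-type pair and, after knockdown, 236 and 243 RPKM. As deposited its groups did not overlap, but after TMM scaling they did, and the log2 fold change was 0.04 ± 0.07 (SE), with a 95% interval of the fold from 0.903 to 1.17, and turned to -0.01 without knockdown replicate 2. The ratio of ALDH3A1 to NQO1 within a library was 0.896 and 1.03 in wild-type cells against 1.15 and 1.22 after knockdown. The NQO1 exons share 575 bp, or 17.7%, with CTD-2033A16.1 on the opposite strand, which stood at 90.2 and 83.2 RPKM in the wild-type pair and, after knockdown, 81.6 and 76.7 RPKM. The ALDH3A1 exons share 98 bp, or 2.50%, with RP11-311F12.2, also on the opposite strand and at 166 to 178 RPKM in the 4 libraries.

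**Figure D2:**
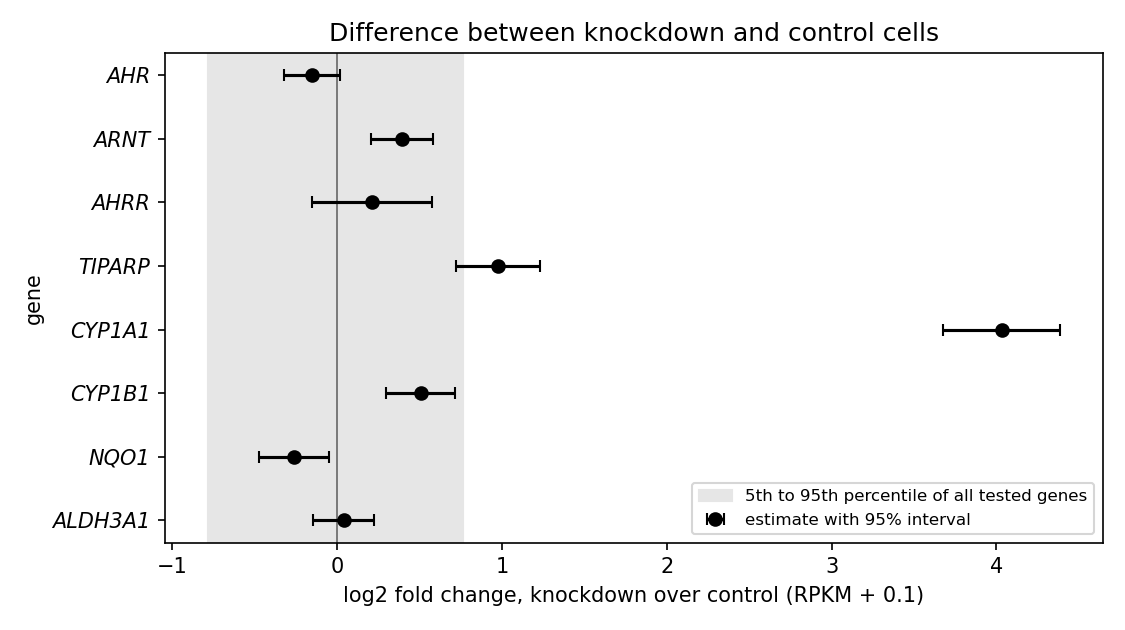
Log2 fold change of knockdown over control for the 8 genes, with 95% intervals from the limma fit, on the log2(RPKM + 0.1) scale. The grey band spans the 5th to 95th percentile of all tested genes, -0.79 to 0.76, and only CYP1A1 and TIPARP have their estimate outside it.

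The order of the levels per length was nearly the same in both groups, apart from CYP1A1. In control cells it ran from NQO1 (233 ± 19.2 RPKM, SD, n = 2) and ALDH3A1 (223 ± 2.79) through AHR (22.7 ± 0.674), CYP1B1 (12.8 ± 0.903), ARNT (11.7 ± 0.412), TIPARP (5.78 ± 0.672) and AHRR (1.14 ± 0.0375) to CYP1A1 (0.2996 ± 0.0258). NQO1 and ALDH3A1 were the only neighbours in that order whose control libraries overlapped. In knockdown cells ALDH3A1 (239.5 ± 4.55 RPKM, SD, n = 2) stood above NQO1 (203 ± 4.49), followed by AHR (21.3 ± 0.00456), CYP1B1 (19.0 ± 0.638), ARNT (16.0 ± 0.299), TIPARP (11.9 ± 0.397), CYP1A1 (6.68 ± 0.149) and AHRR (1.39 ± 0.0148). No neighbours overlapped there, and CYP1A1 had passed AHRR, with a within-library ratio of CYP1A1 to AHRR of 0.273 and 0.253 in wild-type cells against 4.75 and 4.83 after knockdown. AHR and CYP1B1, the next neighbours below the enzymes, stood 1.77 times apart in mean RPKM in control cells and 1.12 times apart in knockdown cells.

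The genes nearest to CYP1A1, by Euclidean distance of log2(RPKM + 0.1) over the 4 libraries after subtracting each gene's control mean, were HRASLS5, FOSB and RPL31P63, at distances of 1.52, 1.53 and 1.55. With the control mean subtracted, this distance mostly follows the size of the difference. The 3 genes held ranks 4, 1 and 3 of the log2 fold change from the highest, and CYP1A1 held rank 2. No shared regulation is read from it. HRASLS5, a phospholipase and acyltransferase gene, had 0 and 1 reads in the wild-type pair and, after knockdown, 27 and 34 reads. FOSB, an AP-1 subunit, was measured at 0.265 and 0.421 RPKM in wild-type cells against 14.3 and 15.8 RPKM after knockdown. RPL31P63, a ribosomal protein pseudogene that can share reads with its parent and copies, had only 0 and 2 reads in the wild-type pair and, after knockdown, 10 and 12 reads. HRASLS5 and RPL31P63 passed the filter on low values through their knockdown libraries alone.

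Around the receptor, 29 of 32 listed partners, chaperones and coregulators were tested, and 6 rose and 2 fell. Their median log2 fold change was 0.05 (all tested genes -0.03), and the shares called can be read against 11.1% and 13.8% of all tested genes. KLF6, a zinc finger factor that can bind DNA with the receptor, rose from 5.42 and 5.05 RPKM to 12.96 and 12.5 RPKM (log2 fold change 1.20 ± 0.08, limma adjusted p = 0.00314). RELA, the NF-kB subunit that can pair with the receptor, rose by 0.41 ± 0.07 on the log2 scale (limma adjusted p = 0.0164), and the PAS proteins NPAS2 and EPAS1, both of which use partners of the ARNT family, rose by 0.55 ± 0.10 and 0.36 ± 0.07 (limma adjusted p = 0.0186 and 0.0217). The coactivator EP300 fell by 0.41 ± 0.07 on the log2 scale (limma adjusted p = 0.0158). The genes of HSP90 and p23 did not pass the test. HSP90AB1, at 415 to 497 RPKM, had a log2 fold change of 0.15 ± 0.09, HSP90AA1 -0.15 ± 0.08 and PTGES3 0.10 ± 0.07 (limma adjusted p = 0.202 to 0.351). Without control replicate 2, knockdown replicate 1 or knockdown replicate 2 only 1 gene of the list was called higher in each case. Without control replicate 1 or control replicate 2 1 gene was called lower, and without knockdown replicate 1 or knockdown replicate 2 0 were.

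Other genes reported to respond to the receptor moved in both directions. Of 34 listed, 33 were in the tables and 25 were tested, of which 7 rose and 8 fell, with a median log2 fold change of -0.20. Over all tested genes 11.1% were called higher and 13.8% lower, with a median of -0.03. The drug efflux pump ABCG2 fell from 34.9 and 32.2 RPKM to 13.7 and 14.1 RPKM (log2 fold change -1.33 ± 0.07, limma adjusted p = 0.00285). The glucuronidating enzymes UGT1A1 and UGT1A6, which belong to the same detoxifying battery as NQO1, fell by 1.01 ± 0.10 and 0.85 ± 0.10 on the log2 scale (limma adjusted p = 0.00528 and 0.00655). The UGT1A genes share their last exons, 1649 bp in this pair, so their values are not separate. SLC7A5, an amino acid transporter, fell by 0.67 ± 0.07 on the log2 scale (limma adjusted p = 0.00545). PTGS2, the inducible cyclooxygenase, rose from 3.88 and 4.23 RPKM to 10.99 and 11.4 RPKM (log2 fold change 1.38 ± 0.09, limma adjusted p = 0.00314). IL1B, named after its values were seen as the largest increase of the list, stood at 1.55 and 2.30 RPKM in wild-type cells against 6.13 and 6.04 RPKM after knockdown (log2 fold change 1.57 ± 0.20, limma adjusted p = 0.00689). Without control replicate 2 the list had 4 genes called higher and 4 lower, without knockdown replicate 1 it had 4 and 5, and without knockdown replicate 2 it had 4 and 4.

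Tryptophan breakdown yields kynurenine and related products, some of which are receptor ligands. Of 23 listed genes of this supply, 22 were in the tables and 20 were tested, of which 3 rose and 4 fell (median log2 fold change -0.14). These counts stand beside 11.1% and 13.8% of all tested genes, whose median was -0.03. SLC3A2 and SLC7A5, the paired subunits of a tryptophan and kynurenine transporter, stood at 57.1 and 55.2 RPKM and at 57.2 and 52.7 RPKM in the controls. SLC3A2 fell to 25.3 and 25.8 RPKM and SLC7A5 to 35.4 and 36.8 RPKM (limma adjusted p = 0.00285 and 0.00545). DDC, the aromatic amino acid decarboxylase, fell from 12.9 and 12.5 RPKM to 7.03 and 5.55 RPKM (log2 fold change -1.08 ± 0.12, limma adjusted p = 0.00594). IL4I1, an oxidase that makes ligands from tryptophan, rose from 10.5 and 10.4 RPKM to 13.9 and 14.998 RPKM (log2 fold change 0.40 ± 0.08, limma adjusted p = 0.0218), and QPRT, an enzyme of the path to NAD, rose by 0.38 ± 0.08 on the log2 scale (limma adjusted p = 0.0224). IL4I1 shares 13.1% of its exon length with NUP62 and QPRT 15.7% with AC009133.22. Without control replicate 1, knockdown replicate 1 or knockdown replicate 2 0 genes of this list were called higher by limma, and without control replicate 2 1 was, against 4 by limma-voom on all libraries.

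**Figure D3:**
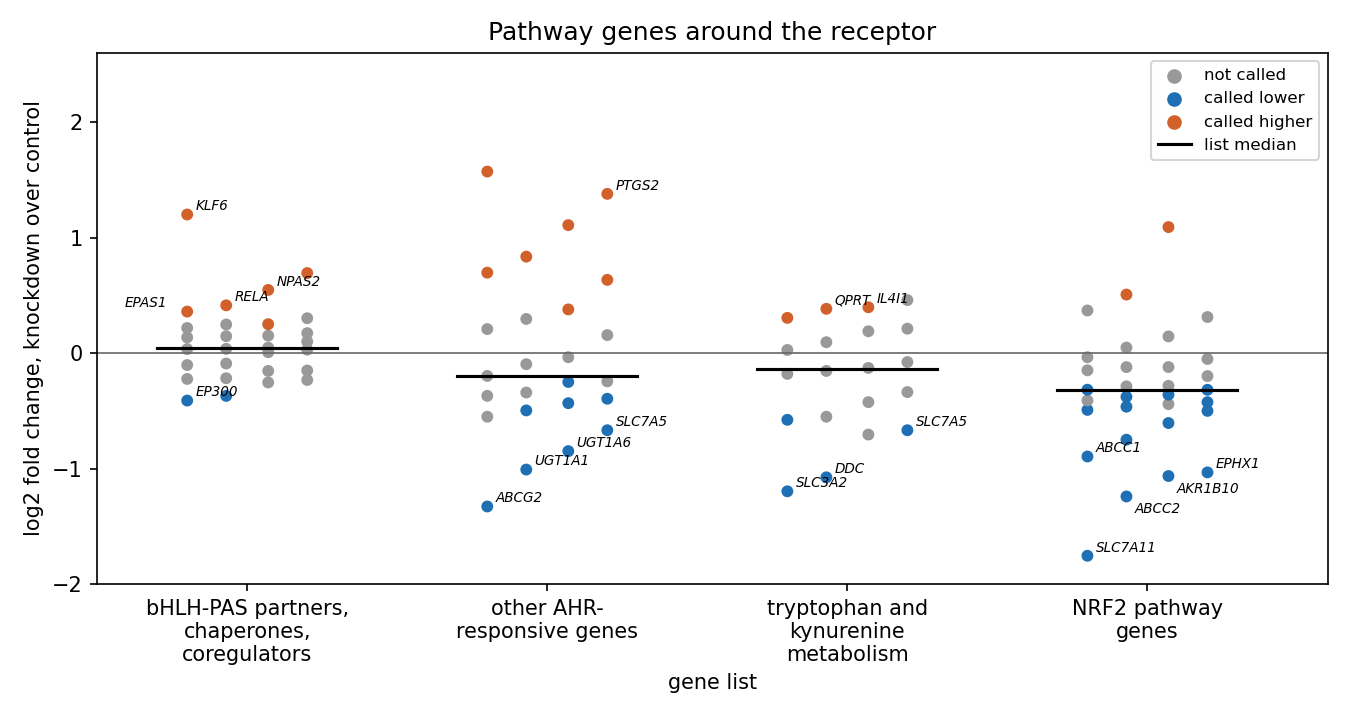
Log2 fold change of knockdown over control for each tested gene (points) of 4 lists of pathway genes, coloured by the limma call at an adjusted p of 0.05, with the list median as a line and the genes named by rule labelled. The first list is centred near 0, with a median of 0.05, and the NRF2 list lies lowest, with a median of -0.32.

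NQO1 and several battery genes also answer to NRF2, and the list of 31 NRF2 pathway genes, all tested, had 15 lower and 2 higher (median log2 fold change -0.32). All tested genes had 13.8% lower and 11.1% higher (median -0.03). That more of its genes were lower than higher was known when the list was drawn up. SLC7A11, the cystine transporter subunit, fell by 1.76 ± 0.07 on the log2 scale, ABCC2 by 1.24 ± 0.06, EPHX1, the microsomal epoxide hydrolase that acts on products of CYP1A1, by 1.03 ± 0.06, ABCC1 by 0.90 ± 0.07 and AKR1B10 by 1.06 ± 0.13 (limma adjusted p = 0.00175 to 0.00635). The 2 that rose, named after their values were seen, were FTH1, the ferritin heavy chain, by 1.09 ± 0.15 on the log2 scale and HMOX1, the inducible heme oxygenase, by 0.51 ± 0.12 (limma adjusted p = 0.00780 and 0.0378). FTH1 has near-identical pseudogene copies that can share its reads. The NRF2 gene itself, NFE2L2, was measured at 13.5 and 12.3 RPKM in the wild-type pair and, after knockdown, 13.3 and 12.96 RPKM (log2 fold change -0.04 ± 0.08, limma adjusted p = 0.770). Without knockdown replicate 1 or knockdown replicate 2 the list had 4 and 5 genes called lower and 0 called higher in each case, and AKR1B10 was not called (limma adjusted p = 0.0802 and 0.0731). SLC7A11 shares 8.97% of its exon length with SLC7A11-AS1 and FTH1 62.4% with BEST1, both on the opposite strand. NFE2L2 shares 17.6% with AC074286.1 on the same strand.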

How the data were processed

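Total RNA of 4 MHCC97H libraries was depleted of ribosomal RNA, made into stranded libraries with molecular identifiers and sequenced paired-end, per the labels' protocols. The submitters' processing notes list StringTie 1.3.2, edgeR 3.12.1, Trimmomatic 0.36, Subread 1.5.1 and featureCounts. No source used here gives the aligner, the strand setting or how the identifiers were used. The notes also name the build mm9, but 100.0% of 26367 names found once in GENCODE v29 (GRCh38) had the same chromosome there, and both ends matched exactly for 93.8%. The authors deposited 1 RPKM value per gene, with summed exon length in bp, per the file headers. Every value came out as a whole number of reads within 0.01 of a read. Replicates differed by more than sampling noise (mean chi-square per gene 7.78 between controls and 2.13 between knockdown libraries).

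RPKM divided by TMM factors was taken as log2(RPKM + 0.1) into limma 3.58.1 (R 4.3.3), using trend moderation, a single group term and adjustment by Benjamini-Hochberg across tested genes. A gene needed 15 reads in total and, in 2 or more libraries, a level worth 10 reads at median depth. The procedure was tested on simulated data, where its share of false calls was somewhat above the nominal level. The simulation gave all genes and libraries the same spread beyond counting and changed only a small part of the genes. These data differ in both respects, so the share of false calls here can be another. The smallest p that an exact permutation test of a single gene can give here is 0.333, so p-values lean on the pooled spread. Alternatives were other pseudocounts, scalings, filters, limma-voom, robust moderation, a replicate block and leaving out each library. Members and lists were chosen with earlier results of these data known. Named are the members, HNRNPM, genes overlapping their exons, CYP1A2, the 3 genes nearest to CYP1A1, and of each list the up to 5 called genes with the smallest adjusted p. IL1B, FTH1, HMOX1, NFE2L2, HSP90AB1, HSP90AA1, PTGES3 and the marker genes were named outside this rule, with their values known. CCBL1 and CCBL2 were matched as KYAT1 and KYAT3. SLC7A5, XDH and NFE2L2 are each in 2 lists. PCK1, IDO1 and the leukocyte marker CD3E were not analysed here.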

Additional observations from a re-analysis of the deposited data

How the results depend on the processing

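Over all genes, 2240 were called higher and 2792 lower. As deposited, without TMM factors, the split was 2783 and 2234 (55.5% higher in place of 44.5%). Without a filter 693 and 1113 were called, as many more genes share the adjustment, and the lists then had 2 higher and 1 lower (partners and coregulators), 3 and 4 (other AHR-responsive genes), 0 higher (tryptophan genes) and 0 higher and 6 lower (NRF2 genes). By limma-voom, 5 partners and coregulators were lower. The cause of that was not tested. With 1 library left out, the counts ranged from 700 to 1531 higher and from 1012 to 1687 lower over all genes, 1 to 4 and 0 to 1 for partners and coregulators, 4 to 5 and 4 to 6 for other AHR-responsive genes, 0 to 1 and 3 to 4 for tryptophan genes, and 0 to 3 and 4 to 16 for NRF2 genes. Such fits have fewer samples, and a group with 1 library is assumed to vary like the other. Of the members, only ALDH3A1 changed sign, to -0.0101 without knockdown replicate 2 (range -0.0101 to 0.0844 with 1 library left out). Every other member kept its direction in each alternative that tested it, and CYP1A1 did not enter the stricter filter of 1 RPKM in all libraries. AHRR moved from 0.21 to 0.13 with a pseudocount of 1. Of 19 genes named from the lists, 0 changed sign, 7 lost their call without at least 1 library and 5 without a filter. The replicate numbers of the groups share no stated origin, and deviations of same-numbered libraries correlated with r = 0.06 across genes. A replicate block gave 2348 higher and 2781 lower genes, and no list count moved by more than 1.5 times. Depth limits CYP1A1 in control cells most, where 19 and 20 reads stand behind a value, and then AHRR, with 124 to 168 reads in the 4 libraries.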
